A study of Mus musculus with 59 samples.

Results

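H3K4me3, trimethylation of lysine 4 of histone H3, was compared between uteri of mice aged 54 to 65 weeks (aged group 3, 10 libraries) and of mice aged 42 or 48 weeks (aged group 2, 6 libraries). These 16 libraries were taken from the 59 samples of the series by the mark and the age given in their names. All 27 H3K4me3 libraries, including those of young mice aged 9 to 11 weeks (7 libraries) and of aged group 1 at 28 to 36 weeks (4 libraries), gave the estimate of the spread. All animals were of the C57/B6 strain, no treatment or engineered allele was named for any group, and each animal gave a single library of the mark. The tissue was labelled uterus, and the protocol names endometrium frozen in pieces, from which native chromatin of few nuclei was immunoprecipitated. The measured units were 25827 H3K4me3 peaks on chromosomes 1 to 19 and X of GRCm38, with values in log2 RPKM, in which reads are divided by the length of the peak and the size of the library, quantile normalized. The p-values measure the spread between libraries, which holds both animal and preparation. That spread is pooled over the 4 age groups and is not that of the 2 compared groups alone.

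H3K4me3 is laid down by SET1 and MLL family methyltransferases around the starts of genes that are transcribed or poised, and its level at a promoter follows how widely and how strongly the gene is used across the cells of a tissue. The uterus combines a luminal and glandular epithelium, a stroma of fibroblasts that decidualises in early pregnancy, and the smooth muscle of the myometrium, all of them responding to oestrogen and progesterone. In bulk tissue such as this, fewer cells of a type and less of the mark per cell cannot be told apart.

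The promoters below were those of the 2 genes with the smallest p among the promoter peaks that were higher in aged group 3 (Cir1 and Slc5a8) and among those that were lower (Scrn1 and Cacnb2), and they show how different in CpG content such promoters were. Each is 300 bases of RefSeq sequence (GRCm38.p6) around the gene start, written 5′ to 3′ on the gene's strand, with CG pairs in capitals, and each lies within its H3K4me3 peak. They are at chr2:73312543-73312842 (minus strand) for Cir1, chr10:88885742-88886041 (plus strand) for Slc5a8, chr6:54566333-54566632 (minus strand) for Scrn1 and chr2:14604056-14604355 (plus strand) for Cacnb2.
Cir1: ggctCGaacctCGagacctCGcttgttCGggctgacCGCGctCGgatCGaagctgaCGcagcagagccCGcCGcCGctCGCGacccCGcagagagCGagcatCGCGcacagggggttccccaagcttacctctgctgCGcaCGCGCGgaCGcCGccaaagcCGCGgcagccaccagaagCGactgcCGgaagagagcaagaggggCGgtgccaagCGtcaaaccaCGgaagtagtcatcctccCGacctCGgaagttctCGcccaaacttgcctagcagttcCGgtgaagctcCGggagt
Slc5a8: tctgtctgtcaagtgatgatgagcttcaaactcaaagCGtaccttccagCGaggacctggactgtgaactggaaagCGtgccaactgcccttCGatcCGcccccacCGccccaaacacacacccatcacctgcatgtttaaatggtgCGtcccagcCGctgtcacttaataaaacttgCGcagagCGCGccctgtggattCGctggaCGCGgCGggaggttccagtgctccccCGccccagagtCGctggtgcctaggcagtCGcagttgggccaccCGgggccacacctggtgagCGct
Scrn1: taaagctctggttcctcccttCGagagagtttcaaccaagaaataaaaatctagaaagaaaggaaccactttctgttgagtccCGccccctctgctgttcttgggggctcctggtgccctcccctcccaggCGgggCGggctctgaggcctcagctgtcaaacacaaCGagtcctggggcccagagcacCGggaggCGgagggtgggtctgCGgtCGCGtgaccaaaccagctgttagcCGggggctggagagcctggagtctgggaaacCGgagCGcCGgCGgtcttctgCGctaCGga
Cacnb2: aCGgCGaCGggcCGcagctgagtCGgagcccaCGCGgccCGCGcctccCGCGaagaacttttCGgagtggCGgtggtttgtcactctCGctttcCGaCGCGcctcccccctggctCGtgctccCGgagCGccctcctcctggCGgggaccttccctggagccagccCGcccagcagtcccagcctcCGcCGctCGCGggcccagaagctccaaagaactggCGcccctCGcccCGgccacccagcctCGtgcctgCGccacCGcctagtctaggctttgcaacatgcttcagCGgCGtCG
The counts of CG pairs were 36 for Cir1, 20 for Slc5a8, 17 for Scrn1 and 35 for Cacnb2, so both directions held a CpG-dense and a less dense promoter. Over the 14 lower promoter peaks with a RefSeq promoter entry the count ran from 2 (Ecm1) to 38 (Rfx2) with a median of 14.5, and over the 3 higher ones from 16 (Myo1e) to 36. The median was 20 over the 8860 tested promoter peaks with an entry. The TATA-box letters TATAAA, searched on both strands, were in none of the 4 promoters printed and in 2 of the 14 lower ones (Ecm1 and the non-coding gene 9330104G04Rik), against 7.1% of tested promoters and 13.6% of all 32851 in the table. The letters of the palindromic consensus oestrogen response element were in none of these 17 promoters, in 1 tested promoter and in 23 of the whole table. A match of this kind describes letters and not a bound site.

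The depths of the 2 groups overlapped. Total reads were 6.835 to 12.168 M in aged group 2 and 7.361 to 12.511 M in aged group 3 (exact permutation test, two-sided, p = 0.891), and reads in peaks made up 61.6% ± 11.3 (SD, n = 6) and 59.8% ± 9.8 (SD, n = 10; exact permutation p = 0.768). In 2 libraries that share was low: 39.7% in aged group 2 replicate 1 and 36.3% in aged group 3 replicate 6. The libraries of aged group 3 were less alike than those of aged group 2: the median SD per peak was 0.35 against 0.29. It was 0.25 in young, whose libraries enter the pooled spread, so SE and p can be too small for the groups compared. Replicates 3, 4 and 10 of aged group 3 stood nearest to the younger groups in their marker levels, which are given with the cell types below. They were aged 63, 54 and 60 weeks. Replicate 4 was the youngest animal of its group, the others being aged 60 to 65 weeks, and the part of its age was not tested. The library names hold a code whose first character is a digit from 1 to 7, and a number for the mouse. Neither is explained in the labels, and 3 aged group 3 libraries (replicates 1, 2 and 4) have mouse numbers under 100.

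Between 42 to 48 weeks and 54 to 65 weeks the mark fell at the promoters or within the genes of the prolactin receptor (Prlr), prostacyclin synthase (Ptgis), extracellular matrix protein 1 (Ecm1) and a calcium channel subunit (Cacnb2). It rose at a monocarboxylate transporter (Slc5a8) and an RNA-binding protein (Rbm47). It was also higher at a peak over the starts of both Cir1, a corepressor of Notch signalling, and Scrn3. There aged group 2 was low beside the younger groups too. At an adjusted p under 0.05 (limma, Benjamini-Hochberg over all peaks), 53 of 25827 peaks passed (0.205%), of which 14 were higher (0.0542%) and 39 lower (0.151%) in aged group 3. With libraries centred on their median instead, 9 were higher and 62 lower. Among the 53, 11 were more than 2-fold higher and 23 more than 2-fold lower. Over all peaks, passing or not, the balance at that size was the other way, with 493 more than 2-fold higher and 285 more than 2-fold lower. The log2 differences ran from 0.19 to 2.02 in the higher peaks (median 1.09) and from -1.87 to -0.42 in the lower ones (median -1.09), with SE of 0.039 to 0.42.

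The calls lay at the edge of the threshold, since the smallest adjusted p was 0.0405 (limma), while 5587 peaks (21.6%) had an unadjusted p under 0.05, 2481 higher (9.61%) and 3106 lower (12%). Leaving out 1 library moved the count by more than 1.5 times in each of 16 cases: no peak passed without any 1 of aged group 2 replicates 1 to 4 or of aged group 3 replicates 2 and 5 to 9, and 4 passed without aged group 2 replicate 6. On the other side, 87 passed without aged group 3 replicate 1, 995 without aged group 2 replicate 5, 1198 without aged group 3 replicate 3, 1241 without its replicate 4 and 2079 without its replicate 10. No peak passed with the values as deposited, where the smallest adjusted p was 0.0644 (limma) and 3763 had an unadjusted p under 0.05, or with the code digit as a factor (4466). Nor did any pass with the 16 libraries of the 2 groups fitted alone, where the smallest adjusted p was 0.187 (limma). In turn, 494 passed without the 3 mouse numbers under 100, and 185 with that number series as a factor. Within the code digits 1 to 6, which both groups hold, the mean difference had the direction of the call at 50, 53, 53, 48, 53 and 53 of the 53 peaks, which were chosen on the same libraries.

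**Figure D1:**
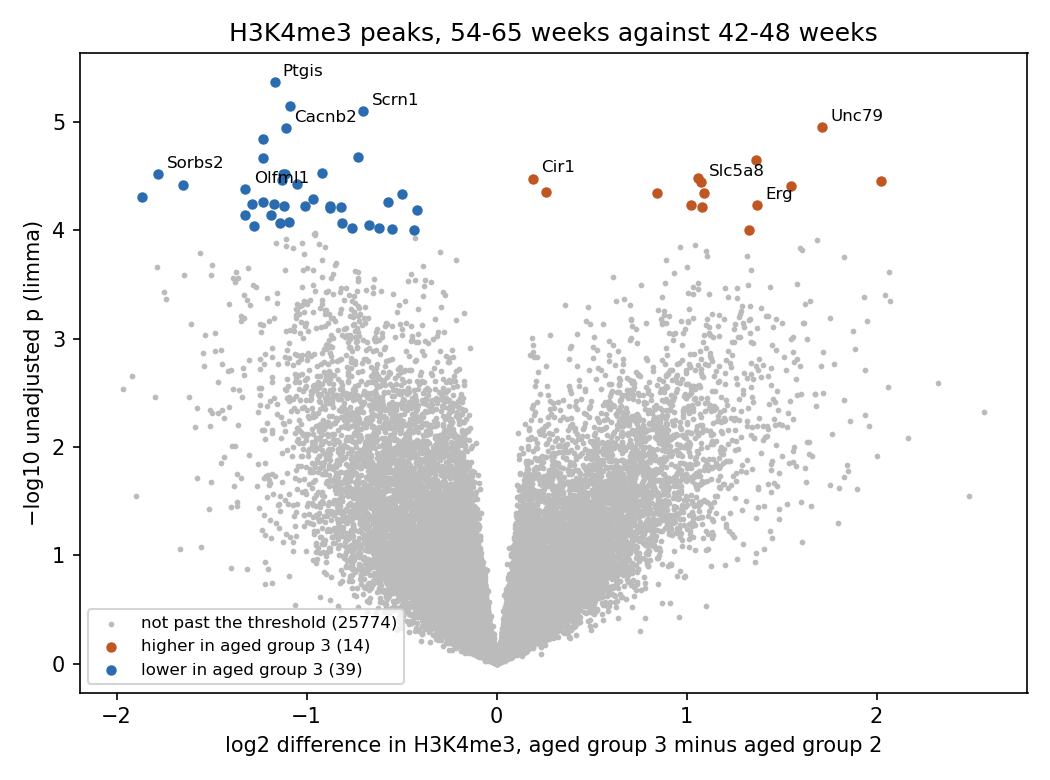
H3K4me3 difference between aged group 3 and aged group 2 (x axis, log2) against the strength of evidence (y axis, −log10 of the unadjusted limma p) for 25827 peaks, 1 point per peak. The 53 peaks past the adjusted threshold are coloured by direction, 14 higher and 39 lower, and they join the cloud of the other peaks with no gap.

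Peaks that passed were narrower and had fewer reads than most. The median width was 1320 bases in the higher and 1309 in the lower peaks against 1720 over all peaks, and the median reads per library were 41.5, 89 and 115. Promoter peaks, those within 1 kb of the start of the gene they are named for, made up 3 of the 14 higher and 17 of the 39 lower peaks, and 0.170% of 11762 promoter peaks passed against 0.235% of the 14065 others. Of the 53, 8 were given no gene by the deposited annotation and 12 were named for predicted or clone genes. Some of the 8 overlap predicted RefSeq genes, such as Gm40305 and Gm28068. The groups did not overlap at 18 of all peaks (0.0697%), with 9 in each direction (0.0348%). Among the 53 this held for 3 higher peaks (Cir1, Rbm47 and Appl2) and for 5 lower ones (Scrn1, Slc16a5, H19 and 2 peaks with no gene). The test and the lack of overlap use the same values, so nothing more is read from that count.

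At 3 promoters the mark rose. Slc5a8, which encodes a sodium-coupled carrier of lactate and short-chain fatty acids, had values of 1.38, 1.83 and 2.95 (lowest, median and highest) in aged group 2 and of 2.08, 3.03 and 3.46 in aged group 3 at the peak over its start (chromosome 10, 88885266 to 88887405). All 10 aged group 3 libraries lay above the aged group 2 mean, and 7 of them above its highest library, replicate 5. The rise was 1.08 ± 0.22 (SE; adjusted p = 0.0405, limma).

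Cir1, which encodes a corepressor that binds the Notch effector RBPJ, had the smallest difference of all named peaks and the smallest SE. Its peak (chromosome 2, 73311517 to 73313812) also covers the start of Scrn3 on the other strand, so that the mark there cannot be given to 1 of the 2 genes. Values were 4.26, 4.45 and 4.53 in aged group 2 and 4.57, 4.62 and 4.69 in aged group 3, without overlap, a rise of 0.19 ± 0.039 (adjusted p = 0.0405, limma). The means of young (4.66) and aged group 1 (4.63) lay beside aged group 3, so at this promoter aged group 2 was the low group. Myo1e, a class I myosin of the cortical cytoskeleton, had values of 3.85, 3.93 and 4.05 against 4.04, 4.16 and 4.45 over its start (chromosome 9, 70206823 to 70210461), with 1 aged group 3 library inside the aged group 2 range. It rose by 0.26 ± 0.054 (adjusted p = 0.0405, limma).

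The other 5 named rises were inside genes, away from the annotated start. Rbm47, an RNA-binding protein of splicing and RNA editing, had a wide peak 68980 bases inside the gene (chromosome 5, 66076731 to 66082974). Its values of 1.67, 1.91 and 2.18 in aged group 2 and 2.25, 2.66 and 3.37 in aged group 3 did not overlap, and it rose by 0.84 ± 0.18. Appl2, an adaptor protein of early endosomes, had a peak 2012 bases inside the gene (chromosome 10, 83644501 to 83646865). Its values were 0.13, 0.61 and 1.18 against 1.31, 1.65 and 2.25, again without overlap, and it rose by 1.09 ± 0.23. Both passed at an adjusted p of 0.0405 (limma).

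Erg, a transcription factor of endothelial cells, had a peak 6320 bases inside the gene (chromosome 16, 95579090 to 95580280) with values of 0.59, 0.90 and 1.58 in aged group 2 and 1.47, 2.47 and 3.30 in aged group 3. The groups overlapped in 2 aged group 3 libraries, replicates 3 and 10, and the rise was 1.37 ± 0.29. Its young mean was 0.16 ± 0.53 (SD, n = 7). Promoters of the blood endothelial list went mostly the other way, with 12 of 15 differences negative. Tiam1, an activator of the GTPase Rac, rose by 1.33 ± 0.30 (chromosome 16, 90097716 to 90099126), from -0.50, 0.68 and 1.51 to 1.31, 1.87 and 2.60, with an adjusted p of 0.0488 (limma). There, 1 aged group 3 library, replicate 1, reached into the aged group 2 range.

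Unc79, a subunit of the sodium leak channel complex, had the largest named rise, 1.71 ± 0.33 (adjusted p = 0.0405, limma), 113452 bases inside the gene (chromosome 12, 103060835 to 103061561). Its values were -0.96, 0.57 and 1.24 in aged group 2 and 1.18, 1.94 and 3.09 in aged group 3, with 1 aged group 3 library below the highest of aged group 2. This peak rested on few reads, with medians of 14 per library in aged group 2 and 28.5 in aged group 3.

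**Figure D2:**
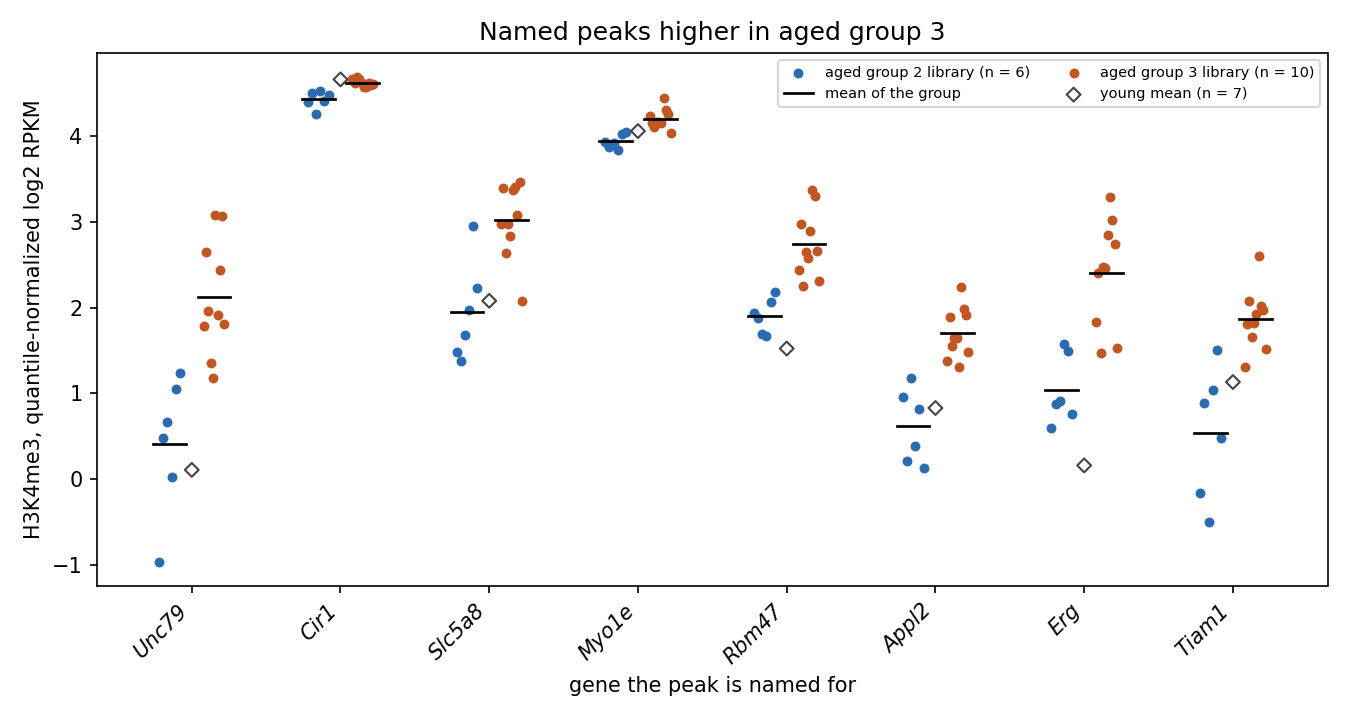
H3K4me3 (y axis, quantile-normalized log2 RPKM) in each library of aged group 2 (blue, n = 6) and aged group 3 (orange, n = 10) at the 8 named peaks that rose, with the group mean as a bar and the young mean as a diamond. All 10 aged group 3 libraries lie above the aged group 2 mean at each of them, and at Cir1, Rbm47 and Appl2 the groups do not overlap.

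Among membrane receptors and channels, the mark fell over the start of Prlr, the receptor through which prolactin and placental lactogens act on the decidualising uterus. At this peak (chromosome 15, 10177203 to 10179386) values were 2.15, 2.51 and 3.35 in aged group 2 and 1.17, 1.40 and 2.79 in aged group 3. Aged group 3 replicate 4 lay above the aged group 2 mean, and 7 of its libraries lay below every aged group 2 library. The difference was -0.97 ± 0.21 (adjusted p = 0.0405, limma). Cacnb2, an auxiliary subunit of voltage-gated calcium channels, fell over its start (chromosome 2, 14603488 to 14606573) by 1.11 ± 0.21. Its values were 3.06, 3.30 and 3.81 against 1.25, 2.25 and 3.55, and replicate 4 was the single aged group 3 library inside the aged group 2 range.

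Cell adhesion genes fell at 2 named peaks. Cdh9, a classical cadherin, fell by 1.23 ± 0.26 over its start (chromosome 15, 16728291 to 16729099), from 1.99, 2.93 and 3.39 to 0.88, 1.35 and 2.73. All 10 aged group 3 libraries lay below the aged group 2 mean, and 7 lay below its lowest library. Cadm1, an immunoglobulin-family adhesion molecule, fell by 1.23 ± 0.24 at a peak 15127 bases inside the gene (chromosome 9, 47545297 to 47546488), from 1.45, 2.10 and 2.66 to -0.04, 0.72 and 1.97. Replicates 4 and 10 of aged group 3 were its 2 libraries within the aged group 2 range.

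A further 3 named peaks that fell were at genes of secreted proteins or of matrix synthesis. Ecm1, a secreted glycoprotein that binds matrix components, had values of 2.03, 2.60 and 2.72 in aged group 2 and 0.30, 1.44 and 2.05 in aged group 3 at a peak just inside the gene (chromosome 3, 95738772 to 95739651). Only replicate 4 of aged group 3 exceeded the lowest aged group 2 library, and the fall was -1.12 ± 0.23. Olfml1, a secreted protein with an olfactomedin domain, fell by 1.32 ± 0.28 over its start (chromosome 7, 107566881 to 107569761). Its values were 1.87, 2.51 and 3.38 against 0.65, 1.16 and 2.65, with replicate 4 again the single library above the lowest of aged group 2. Csgalnact1, an enzyme that begins and extends chondroitin sulfate chains, fell by 1.05 ± 0.22 at an internal peak (chromosome 8, 68556657 to 68557528), from 2.11, 2.28 and 2.87 to 0.56, 1.37 and 2.19. Replicate 1 was the single aged group 3 library there within the aged group 2 range.

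Ptgis, the enzyme that makes prostacyclin, had the smallest p of all peaks (4.29e-06, limma; adjusted p = 0.0405). Its peak lies 11299 bases inside the gene (chromosome 2, 167237988 to 167240851). Values were 2.60, 2.96 and 3.69 in aged group 2 and 1.26, 1.78 and 3.06 in aged group 3, and 9 of 10 aged group 3 libraries lay below every aged group 2 library, all but replicate 4. The difference was -1.17 ± 0.21. Scrn1, a protein of the secernin family linked to regulated secretion, was the named lower promoter whose groups did not overlap, with values of 3.02, 3.30 and 3.70 against 2.16, 2.72 and 3.00 over its start (chromosome 6, 54565175 to 54567020). It fell by 0.70 ± 0.13, a smaller step than at most named peaks. Its SD was 0.30 in aged group 2 and 0.33 in aged group 3, near the medians over all peaks (0.29 and 0.35). The young mean of 3.39 ± 0.07 (SD, n = 7) was near that of aged group 2.

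Sec24d, a subunit of the coat of vesicles leaving the endoplasmic reticulum, fell by 1.23 ± 0.24 (chromosome 3, 123264757 to 123265488), from 2.64, 3.28 and 4.00 to 1.47, 1.90 and 2.92. The peak covers the first base of the RefSeq gene extent, whereas the deposited annotation places it 1967 bases from the gene. Sorbs2, an adaptor of the actin cytoskeleton, had the largest named fall, -1.78 ± 0.36, at an internal peak (chromosome 8, 45763846 to 45764168). Its values were 1.76, 2.33 and 2.89 against -0.54, 0.33 and 2.21, and the median reads per library fell short of most peaks, 18 in aged group 2 and 3.5 in aged group 3.

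Of nuclear factors, Rfx2, a transcription factor of ciliated cells and spermatids, fell by 0.50 ± 0.10 over its start (chromosome 17, 56828914 to 56831980). Its values were 3.34, 3.62 and 3.93 in aged group 2 and 2.73, 3.12 and 3.43 in aged group 3, with 8 of 10 libraries below all of aged group 2. Greb1, an oestrogen-induced cofactor of the oestrogen receptor, fell by 1.32 ± 0.29 at a peak 60964 bases inside the gene (chromosome 12, 16739574 to 16740430; adjusted p = 0.0436, limma). Its values were 2.01, 2.44 and 2.59 against -0.07, 0.75 and 2.49, and replicates 1 and 4 of aged group 3 lay within the aged group 2 range. Median reads per library there were 51 in aged group 2 and 15 in aged group 3. Promoters of the oestrogen response list went mostly the other way, with 20 of 23 differences positive. The adjusted p was 0.0405 (limma) for every named peak other than Greb1 and Tiam1.

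**Figure D3:**
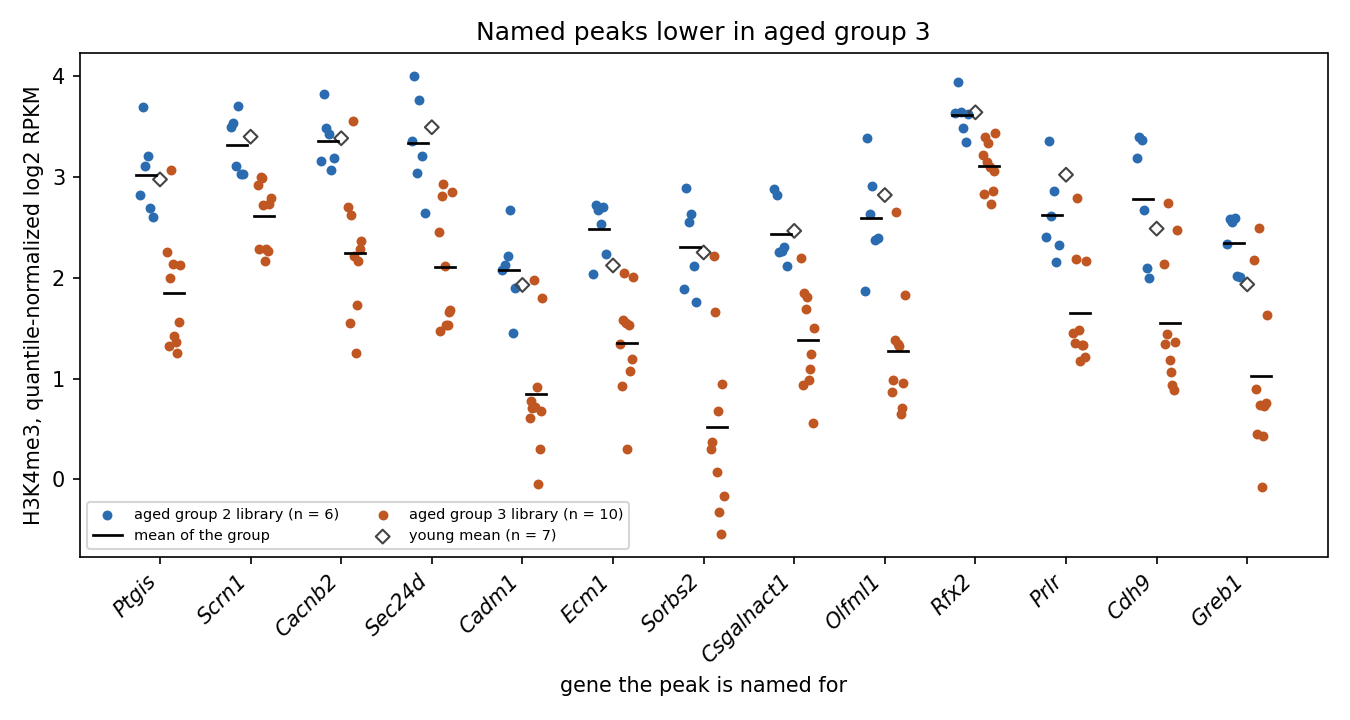
H3K4me3 (y axis, quantile-normalized log2 RPKM) in each library of aged group 2 (blue, n = 6) and aged group 3 (orange, n = 10) at the 13 named peaks that fell, with the group mean as a bar and the young mean as a diamond. The spread of aged group 3 reaches into aged group 2 at 12 of them, all but Scrn1.

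Further peaks that fell were noted after their values were seen, since they lie outside the rule by which genes were named. A peak named for Hoxc5 lies within RefSeq's Hoxc6 (-1.65 ± 0.34) and another, named for the predicted gene Gm28308, lies at Hoxa3 (-1.11 ± 0.23), both homeobox genes of body axis patterning. Transcription factor genes also gave their names to a peak near Nfib (-1.17 ± 0.25) and to a peak over the start of Gata6os that reaches Gata6 (-0.88 ± 0.19). The strand of reads is not recorded in such data, so Gata6 and its antisense partner cannot be told apart. Trpc6, a calcium-permeable channel, differed by -0.88 ± 0.19 over its start, and Procr, the endothelial protein C receptor, by -0.55 ± 0.12. Gpm6a, a membrane glycoprotein gene, lies at a peak that the deposited table names for Wdr17 (-1.14 ± 0.25). A peak 1781 bases upstream of the imprinted RNA gene H19 differed by -0.67 ± 0.15, with all 10 aged group 3 libraries below all 6 of aged group 2. A pair of adjacent peaks at the non-coding gene 8430419K02Rik both passed (-1.09 ± 0.20 and -0.73 ± 0.15).

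The levels of the same peaks in the younger groups place the difference. The median of the 39 lower peaks was 2.93 in young, 2.80 in aged group 1, 2.77 in aged group 2 and 1.82 in aged group 3, and at all 39 the aged group 3 mean was below both the young and the aged group 1 mean. For the 14 higher peaks the median was 1.43 in aged group 1, 0.99 in aged group 2 and 2.52 in aged group 3, and 13 of the 14 had an aged group 3 mean above both, with Cir1 as the exception. At 6 of the 14 higher peaks aged group 2 lay below both younger groups, and at 13 of the 39 lower ones above both. These values share the aged group 3 libraries that chose the peaks, so they describe the peaks and carry no test.

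Markers of the tissue's cell types were used to describe each library. Promoter peaks were found for 21 of 28 epithelial, 17 of 24 stromal and 17 of 20 smooth muscle marker genes, and for 5 of 20 T and NK cell genes. The epithelial score, the mean of its genes in a library, ran from 2.58 to 3.64 in aged group 2 and from 2.32 to 4.04 in aged group 3, and the stromal score from 2.62 to 3.37 and from 2.00 to 3.40. The difference of the 2 scores was -0.015 ± 0.65 (SD, n = 6) in aged group 2 and 0.95 ± 1.04 (SD, n = 10) in aged group 3, against -0.69 ± 0.42 (SD, n = 7) in young. Within aged group 3, replicates 3, 4 and 10 (-0.10, -0.11 and -1.08) lay apart from the other 7, which ran from 0.99 to 2.02. In aged group 2, replicate 5 had the highest value, 1.02. These 4 libraries are those whose removal raised the number of peaks past the threshold most.

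The difference in that score between the groups was 0.96, and within the code digits 1 to 6 it was 1.32, 2.81, 0.32, -0.12, 0.47 and 1.17, most of them from 1 library on each side. The first principal component of the 27 libraries held 42.8% of the variance, and its Pearson correlation with the score was 0.98, which describes 27 libraries whose scores come from the same peaks. With the score as a covariate no peak passed (limma) and 1751 had an unadjusted p under 0.05. The difference was then nearer to 0 at each named peak other than Cir1. It was smaller by more than 1.5 times at Slc5a8 (0.66), Sec24d (-0.80), Rfx2 (-0.33), Prlr (-0.57) and Cdh9 (-0.73).

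**Figure D4:**
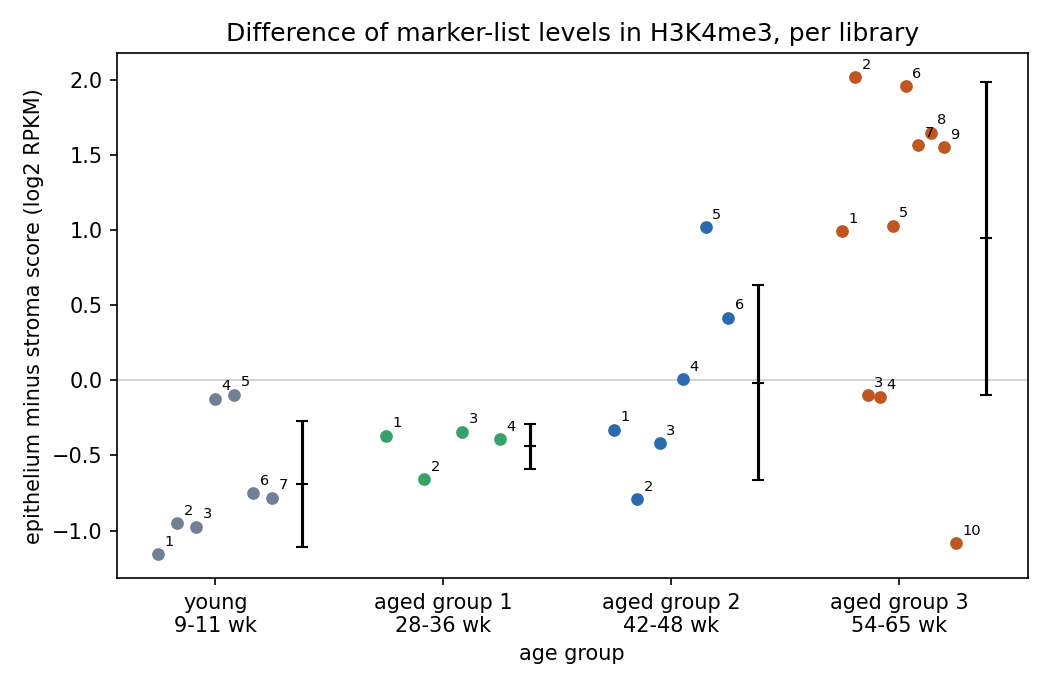
Epithelium minus stroma score (y axis, difference of mean log2 RPKM of the marker genes) for each of 27 H3K4me3 libraries by age group, with replicate numbers beside the points and the mean ± SD as bars. Aged group 3 spans -1.08 to 2.02, and its replicates 3, 4 and 10 lie within or below the range of aged group 2.

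Gene lists were read at 1 promoter peak per gene, over 11718 genes, of which 20 passed (0.171%), 664 were higher (5.67%) and 1547 lower (13.2%) at an unadjusted p under 0.05, with a median difference of -0.02. Over all these genes 6679 differences were negative and 5039 positive, and 7967 and 3751 with the values as deposited. Some genes are in more than 1 list, so the counts of different lists are not independent. Of the list genes 3 passed the adjusted threshold, Ecm1 (stroma), Prlr (progesterone response and decidualisation) and Rfx2 (cilium and gland differentiation), and all other counts below are at the unadjusted threshold (limma). The cilium and gland list had 10 of 12 genes negative (median -0.08), with 3 lower and 2 higher at that threshold. Its differences reached 0.85, so Rfx2 does not stand for the list. The stromal list had 15 of 17 genes with negative differences (median -0.62), 9 at that threshold, among them Vim, an intermediate filament (-0.87 ± 0.24), and Cdh11, a mesenchymal cadherin (-0.94 ± 0.28). Collagens and other matrix genes had 34 of 35 negative (median -0.56) and 25 at the threshold, with the collagen VI chains Col6a1 at -0.88 ± 0.26 and Col6a2 at -0.94 ± 0.28, and the basement membrane collagen Col4a1 at -0.78 ± 0.23. Matrix-degrading enzymes and their inhibitors had 10 of 12 negative and 7 at the threshold, such as the collagenolytic protease Ctsk (-1.02 ± 0.33) and the inhibitor Timp2 (-0.64 ± 0.20).

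All 17 smooth muscle genes were negative (median -0.47) and 10 had an unadjusted p under 0.05, among them the myosin light chain kinase gene Mylk (-0.77 ± 0.21) and Cald1, caldesmon (-0.83 ± 0.25). The smooth muscle score ran from 1.84 to 2.66 in aged group 2 and from 1.29 to 2.44 in aged group 3. Mesothelial genes, of the outer lining of the uterus, had 3 of 4 lower at that threshold, with Msln at -1.39 ± 0.43. The blood endothelial list had 12 of 15 genes negative (median -0.33), with 3 lower and 1 higher at that threshold (Esam -0.61 ± 0.17, Sox7 0.70 ± 0.24). All 5 lymphatic endothelial genes were negative (median -0.29). In the HOX list 4 of 7 measured genes were lower, with Hoxa7 at -0.92 ± 0.23 and Hoxc10 at -1.06 ± 0.30. The epithelial and stromal scores given above moved with these lists, and their part in them was not tested. The protocol names endometrium, and how much muscle or outer lining each piece held was not tested either.

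On the other side, all 21 epithelial genes had positive differences (median 0.32; 19 of 21 with the values as deposited), and 6 had an unadjusted p under 0.05. They include the apical membrane protein Prom1 (0.87 ± 0.22), the adhesion molecule Epcam (0.61 ± 0.19) and the gland transcription factor Foxa2 (0.85 ± 0.35). Interferon response genes were positive at 22 of 26 (median 0.20), 10 at that threshold, such as the antiviral enzyme Oas2 (1.20 ± 0.46) and the virus-tethering protein Bst2 (0.21 ± 0.073). Oestrogen response genes were positive at 20 of 23 (median 0.20) with 3 at the threshold, among them the water channel Aqp5 (1.53 ± 0.69). The largest difference in this list and in the epithelial list was the same value, 1.61, so the 2 lists are not separate results. Proliferation genes were positive at 26 of 28 (median 0.20) with 4, among them the mitotic checkpoint kinase Bub1 (0.45 ± 0.16). None of these genes passed the adjusted threshold.

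Of the hormone and signalling lists, progesterone response had 17 of 23 negative (median -0.16) and 8 at the unadjusted threshold, among them Bmp2, a growth factor of decidualisation (-0.75 ± 0.20), and Sgk1, a kinase of ion transport (-0.43 ± 0.13). Decidualisation and implantation genes had 7 lower and 1 higher of 16. Wnt signalling had 10 lower and 1 higher of 35, with the ligand Wnt2 at -0.58 ± 0.17 and the receptor Lgr4 at 0.27 ± 0.10. Immediate early genes had 8 of 23 lower, with Klf6 at -0.21 ± 0.049 and Atf3 at -0.42 ± 0.13, and below the aged group 2 mean in 10 of 10 libraries at both. Circadian clock genes were negative at 11 of 12 with 2 at the threshold, Per2 (-0.32 ± 0.086) and Hlf (-0.42 ± 0.17). That share, 16.7%, was near the 13.2% lower over all genes. Among writers and erasers of histone and DNA methylation, Tet1 stood at -0.42 ± 0.12, Kmt2a at -0.21 ± 0.064 and Kmt2b at 0.17 ± 0.061, in a list of 24 with 4 lower and 1 higher. These shares, 16.7% and 4.17%, were also near those over all genes, 13.2% and 5.67%.

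Other lists had few members at the threshold. No gene of the leukocyte list (17 measured) or of the macrophage list (16 measured) had an unadjusted p under 0.05. The leukocyte score ran from 1.54 to 2.97 in aged group 2 and from 1.43 to 2.53 in aged group 3. Heat shock and folding genes (1 higher of 18), senescence and cell-cycle arrest genes (1 lower of 15) and housekeeping genes used as controls (1 higher of 11) had medians of 0.00, -0.01 and 0.02, whose sign changed with the scaling of the libraries. Antigen presentation had none of 9 at the threshold. Of 22 TGF-beta signalling genes 3 were lower, among them the receptors Tgfbr2 (-0.25 ± 0.073) and Tgfbr3 (-0.64 ± 0.23). That share, 13.6%, was near the 13.2% lower over all genes, so no fall of the list is read from it. Inflammatory and senescence-associated secreted factors had 6 lower and 3 higher of 23, with the binding protein Igfbp6 at -1.09 ± 0.29 and the macrophage growth factor Csf1 at -0.44 ± 0.12. Complement genes had 3 lower and 2 higher of 11, among them the inhibitor Serping1 (-0.90 ± 0.31) and factor B, Cfb (1.08 ± 0.44). Oxidative stress genes had 2 lower (11.1%) and 1 higher (5.56%) of 18, also near the shares over all genes. Lymphatic endothelium (1 lower of 5, Pdpn), pericytes (1 lower of 4), T and NK cells (1 higher of 5, Gata3), B and plasma cells (1 lower and 1 higher of 4), ovary and oviduct (1 lower of 2), peripheral nerve (none of 2) and adipocytes (none of 1) had few measured genes. For no other list than B and plasma cells, adipocytes and oxidative stress, whose medians were also near 0, did the sign of the median depend on the scaling.

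**Figure D5:**
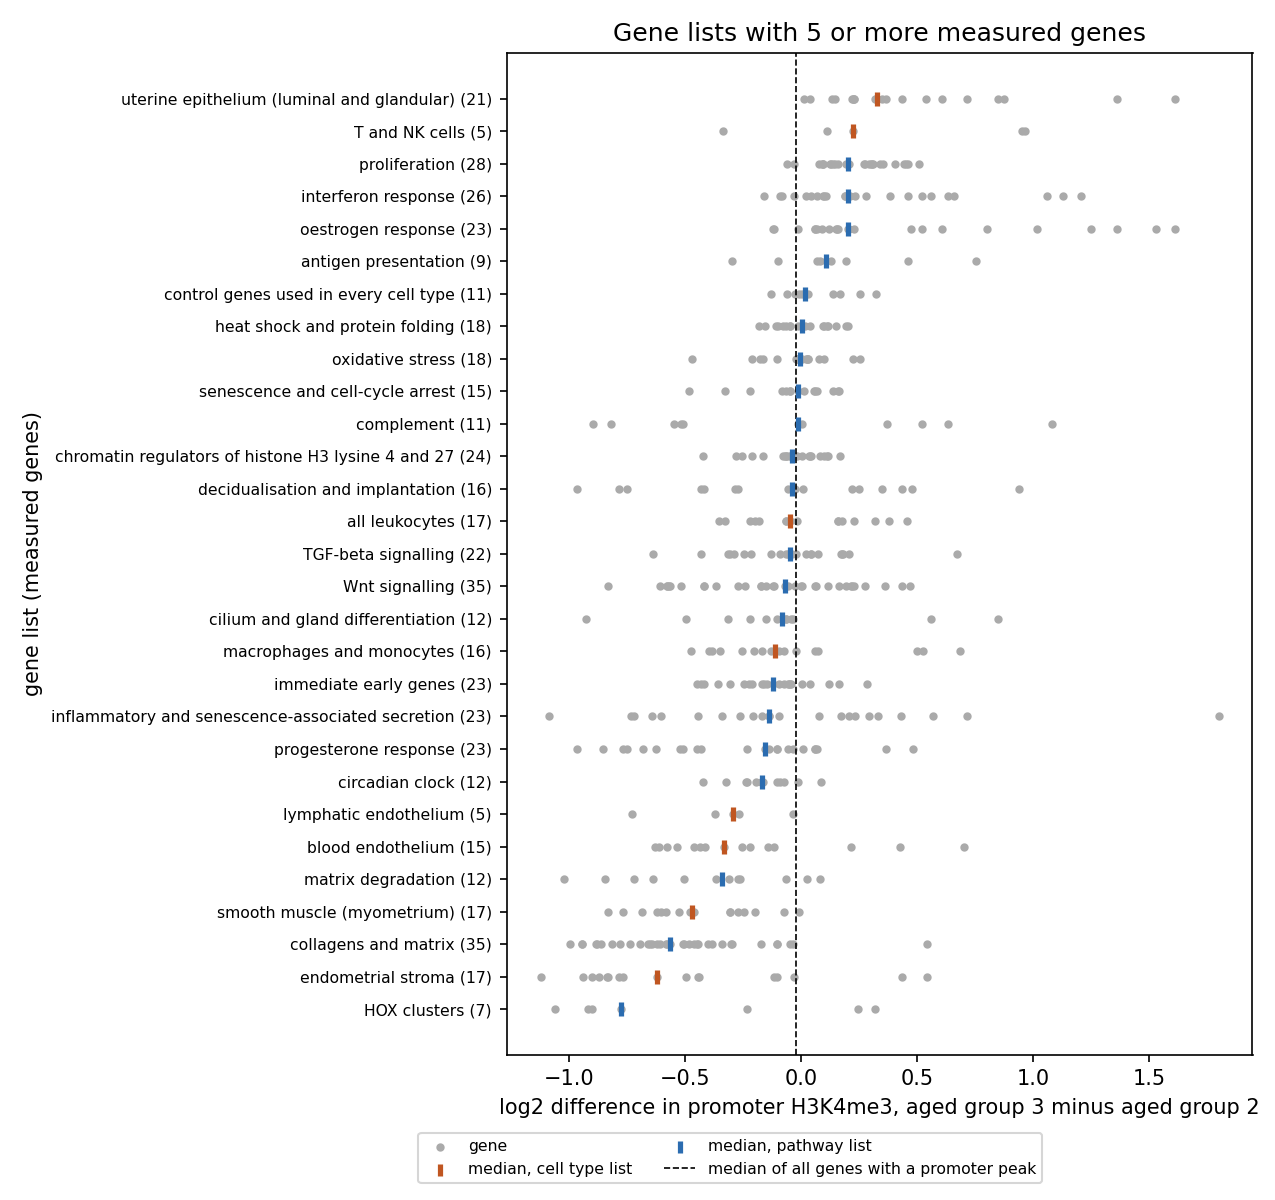
Difference in promoter H3K4me3 between aged group 3 and aged group 2 (x axis, log2) for the genes of each list with 5 or more measured genes (y axis, number of genes in brackets), with 1 grey point per gene and the list median as a bar. Epithelial genes all lie above 0, and the stromal, smooth muscle and matrix lists have medians from -0.62 to -0.47 against -0.02 over all genes.

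H3K27ac, the acetylation of histone H3 found at active promoters and enhancers, was measured in the same animals. Its values are therefore not independent of those of H3K4me3. No H3K27ac peak passed between the groups (0 of 54354, 0%; smallest adjusted p = 0.220, limma), while 8718 had an unadjusted p under 0.05 (16%), 3821 higher (7.03%) and 4897 lower (9.01%). Of the 53 H3K4me3 peaks, 42 overlapped an H3K27ac peak, as did 80.9% of all H3K4me3 peaks. At 28 of the 33 lower peaks with an overlap the H3K27ac difference was negative too (median -0.42), 16 of them at an unadjusted p under 0.05, and at 7 of the 9 higher ones it was positive (median 0.31), 3 of them at that threshold. The same count over all H3K4me3 peaks with an overlap was not made. Over those peaks the differences of the 2 marks also went together (Pearson correlation 0.66), so these counts are no separate support for the 53.

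Of the named lower peaks, Ptgis, Cacnb2, Scrn1 and Rfx2 had the smallest unadjusted p in H3K27ac. Their H3K27ac differences were -0.78 ± 0.22, -0.79 ± 0.24, -0.60 ± 0.22 and -0.48 ± 0.16, with adjusted p from 0.22 to 0.24 (limma). Prlr had an H3K27ac difference of 0.01 ± 0.36 beside the fall of H3K4me3, and Ecm1 had -0.07 ± 0.18. At the Cir1 and Myo1e promoters, where H3K4me3 rose, H3K27ac differed by -0.14 ± 0.13 and -0.09 ± 0.14. At Appl2 it differed by 0.31 ± 0.13. Across the 20883 H3K4me3 peaks with an overlap, the Pearson correlation of the 2 log2 differences was 0.66, over peaks that share animals and are not independent.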

How the data were processed

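The deposited H3K4me3 and H3K27ac tables hold log2 RPKM per peak and library, per the file headers, 27 libraries of each mark. Native chromatin of few nuclei was immunoprecipitated, per the labels' protocols. Alignment was to GRCm38 with Bowtie2; deepTools 3.5.1, ChIPseeker 1.34.1, DiffBind 3.8.0, MACS2 2.2.9.1 and DESeq2 are listed without a role, per the submitters' processing notes. Whether the peaks were called per library or on pooled reads is not given in the sources used here. The authors' values gave whole reads, within 0.05, in 100.0% of cases (0.9 for empty peaks), from which depth was taken. Depth ran from 6.835 to 48.29 M reads per H3K4me3 library, and the 60 pairs of libraries within aged groups 2 and 3 differed by at least 2.61 in chi-square per degree of freedom.

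The 8 peaks on chromosome Y were left out. Values were quantile normalized and fitted with limma 3.58.1 (R 4.3.3; lmFit and eBayes with trend) in 1 model of 4 group means over 27 libraries, with the contrast aged group 3 minus aged group 2, two-sided, Benjamini-Hochberg adjusted over all peaks at 0.05. The steps were tested on simulated data with independent normal noise and the same spread in all groups. Variation shared between peaks, as in these libraries, was not simulated, so that test cannot show how the calls hold under it. Gene extents came from RefSeq (GRCm38.p6), where 14516 of 15809 symbols matched, and strand from the deposited tables. Peaks within 1 kb of that start are promoter peaks. A gene entered its list with the promoter peak of highest mean. Named genes are, among passing peaks with a gene symbol that is not a predicted name and with the larger of both group means at least the 0.25 quantile of peak means, the 12 of smallest p, the 6 promoter peaks of smallest p and the 5 largest folds per direction, and up to 4 passing members per list. Further passing peaks were named after their values were seen, and 1 peak that met the rule is not reported here. An overlap with H3K27ac is at least 1 base. The comparison, the 35 lists (743 genes) and the tests were chosen with earlier results of these data known. Other scalings, filters, covariates, weights and left-out libraries were tried.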

Additional observations from a re-analysis of the deposited data

Results flagged for a closer look

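There were 3 values that lay far from the others of their group among 50 groups of values checked, of which chance alone would give about 1 in 20. The leukocyte score of aged group 2 replicate 5 was 2.97, with the next library at 1.82, and the same library had the highest epithelium minus stroma score of its group. The share of reads in peaks was 39.7% in aged group 2 replicate 1, with the next library at 58.6%, and 36.3% in aged group 3 replicate 6, with the next at 55%. Without these last 2 libraries, an alternative chosen after seeing the data, no peak passed the adjusted threshold (limma), and 3743 had an unadjusted p under 0.05.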

How the results depend on the processing

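The number of H3K4me3 peaks past the threshold, 53, depended on the processing. It was 0 with the values as deposited, with the 16 libraries fitted alone, with a term for the code digit, with a term for the epithelium minus stroma score and with age in weeks as a linear term. It was 27 with peaks of low mean removed (19370 tested, which held 35 of the 53), 71 with libraries centred on their median, 494 without the 3 libraries of mouse numbers under 100, 185 with that number series as a factor and 7734 with a weight per library, where aged group 3 replicates 10, 4 and 3 had the lowest weights (0.261, 0.410 and 0.428). Of the alternatives chosen after seeing the data, limma voom on recovered reads gave 439, robust variance moderation 52, and leaving out the 2 libraries of lowest share of reads in peaks 0. Leaving out 1 library gave 0 to 2079. The cause of these shifts was not tested. List genes past the threshold went from 3 to 0 with the values as deposited. No H3K27ac peak passed under any of its 4 alternatives. The score difference of 0.962 was 1.031 with the values as deposited.

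With the replicate number as a block, over the 12 libraries of numbers 1 to 6, 0 H3K4me3 peaks and 0 H3K27ac peaks passed. The numbers did not pair the libraries: same-numbered libraries correlated from -0.34 to 0.31, and none of 6 correlated best with its own number.

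All 21 named peaks passed in 9 alternatives: without aged group 2 replicate 5, without aged group 3 replicates 1, 3, 4 or 10, without the mouse numbers under 100 or with a term for them, and with weights or voom. With median centring 16 passed, with robust variance moderation 20 and without aged group 2 replicate 6 4, and with low peaks removed 15 of the 15 that were tested. In the other 17 alternatives none passed. Over the alternatives the adjusted p of Ptgis ran from 0.00019 to 0.435 and that of Cir1 from 0.00484 to 0.73 (limma). Counting error is large at peaks with few reads, such as Sorbs2 (median 3.5 reads per aged group 3 library) and Unc79 (median 14 per aged group 2 library).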
